A study of Mus musculus with 12 samples.

Results

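The 10 genes described here encode the cytokines that effector T cells are best known for: *Ifng*, *Tnf*, *Il2*, *Il10*, *Il21*, *Csf1*, *Csf2*, *Lta*, *Ltb* and *Tgfb1*. They were chosen by name, as 10 of the 18992 gene identifiers that the deposited single-cell tables list, by a rule that uses no measured value, although the list was drawn up with earlier results of these data known. All 10 were listed in the 28W spleen and 28W kidney tables, and 9 in the 12W spleen table, where *Il10* had no row. The study sorted PD-1+CD44+CD8+ T cells of the NZB/W F1 hybrid, a mouse model whose females develop lupus nephritis with age, to ask how these cells differ before disease and in advanced disease, and between spleen and kidney. The 3 groups were 12W spleen (pre-disease, 12 weeks), 28W spleen and 28W kidney (both 28 weeks, advanced disease), and values given as a series of 3 follow that order. The mice were female, no treatment or engineered allele is given for any group, and kidney was digested with collagenase I and passed over Percoll, steps that the methods do not give for spleen. For 28W spleen the labels disagree, since the titles say 28 weeks and the age entry 12 weeks, and the titles were followed.

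The labels list 12 samples, 4 per group, but each group's table pools its 4 samples with no map from cells to samples, and how many mice contributed to a library is not given. Each group was therefore 1 library with no replicate, no test between groups was possible, and every interval covers counting error only. The libraries held 6894, 6481 and 7135 cells in 10, 11 and 12 clusters that the authors made within each library, with 34742303, 32023473 and 29937384 unique molecular identifiers (UMIs, 1 for each captured transcript). Cluster numbers are not matched between libraries. Pairs of libraries shared 52 to 66 cell barcodes, between 0.754% and 1.02% of a library. Levels are UMIs per 1000000 UMIs of the library or cluster (CPM) with 95% exact Poisson intervals, and UMIs per 1000 cells are given where the clusters differed widely in RNA content. A lower level may reflect fewer producing cells or less RNA per cell, which cluster sums cannot tell apart.

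The sorted identity was checked first. The list of *Cd8a*, *Cd8b1*, *Cd3d*, *Cd3e* and *Trac* summed to 3918, 3749 and 4599 CPM, and *Pdcd1*, which encodes PD-1, had 36.6, 34.7 and 115 CPM. The CD8 T cell list was nonetheless low in 4 clusters, at 906 CPM in cluster 10 of 28W spleen and at 1968, 1796 and 999 CPM in clusters 2, 8 and 12 of 28W kidney. Markers of other cells reached 1000 summed CPM in 8 of the 33 clusters, a limit set with the values known. These were cluster 3 of 12W spleen and 8 of 28W spleen (haemoglobin and neutrophil genes), cluster 10 of 28W spleen (dendritic cell, B cell and myeloid genes), and, in 28W kidney, clusters 2 (tubule and haemoglobin), 7 (tubule), 8 (B cell), 11 (haemoglobin) and 12 (myeloid, dendritic cell and neutrophil). The neutrophil list was at 1166 CPM in cluster 3 of 12W spleen, 23839 in cluster 8 of 28W spleen and 18216 in cluster 12 of 28W kidney, and the dendritic cell list at 6203 CPM in cluster 10 of 28W spleen and 14920 in cluster 12 of 28W kidney. The 8 clusters held 15.4%, 9.61% and 34.6% of the cells of the libraries and are called marked clusters below. The 3 low-RNA clusters, 8 of 12W spleen and 8 and 11 of 28W spleen, had fewer UMIs per cell than the total to which the library's deposited columns sum (3853, 4128 and 3501, taken as its median per cell) divided by 3. Cluster 2 of 28W kidney, at 1200 UMIs per cell, lay just above that limit.

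Interferon-γ (*Ifng*) and tumour necrosis factor (*Tnf*) are the main inflammatory cytokines of cytotoxic T cells, and *Ifng* is induced by the transcription factor T-bet. Interleukin-2 drives T cell growth, interleukin-21 supports B cells and CD8 T cells, and interleukin-10 and transforming growth factor β restrain immune responses. Lymphotoxin α and lymphotoxin β (*Lta*, *Ltb*) shape lymphoid tissue, and *Csf1* and *Csf2* encode growth factors of macrophages and other myeloid cells. In lupus nephritis, cytokines of infiltrating T cells are studied as possible drivers of kidney injury.

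On GRCm38, *Ltb* (chromosome 17, 35194439 to 35196320, plus strand), *Tnf* (35199381 to 35202007, minus) and *Lta* (35203165 to 35205351, minus) lie within 10913 bases, with 3061 bases between *Ltb* and *Tnf* and 1158 between *Tnf* and *Lta*. *Il2* (chromosome 3, 37120523 to 37125959, minus) and *Il21* (37222759 to 37232636, minus) are neighbours 96800 bases apart, and *Csf1* is on the same chromosome (107741048 to 107760469, minus). *Ifng* is on chromosome 10 (118441046 to 118445892, plus), *Il10* on chromosome 1 (131019845 to 131024974, plus), *Csf2* on chromosome 11 (54247271 to 54249667, minus) and *Tgfb1* on chromosome 7 (25687002 to 25705077, plus). Upstream sequence (RefSeq, GRCm38.p6, up to 250 bases before the start) was found for 9 of the 10 genes. It is printed for the 3 genes that were highest in kidney and lowest in 12W spleen and had a TATA box near the start, and for *Ltb*, whose level was nearly flat. Capitals mark TATAAA (searched on the gene's strand) and the NF-kB consensus (both strands).
Ifng upstream, chr10:118440796-118441045, plus strand: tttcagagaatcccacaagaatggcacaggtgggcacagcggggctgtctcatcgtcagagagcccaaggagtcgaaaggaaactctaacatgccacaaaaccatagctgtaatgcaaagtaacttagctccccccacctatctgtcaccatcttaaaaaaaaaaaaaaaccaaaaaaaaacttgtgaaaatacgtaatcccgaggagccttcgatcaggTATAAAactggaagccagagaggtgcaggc
Tnf upstream, chr17:35202008-35202257, minus strand: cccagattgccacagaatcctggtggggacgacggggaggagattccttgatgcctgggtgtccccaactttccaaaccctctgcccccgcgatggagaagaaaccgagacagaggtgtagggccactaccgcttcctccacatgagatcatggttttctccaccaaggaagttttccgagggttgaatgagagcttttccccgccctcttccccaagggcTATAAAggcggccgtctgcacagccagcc
Il2 upstream, chr3:37125960-37126204, minus strand: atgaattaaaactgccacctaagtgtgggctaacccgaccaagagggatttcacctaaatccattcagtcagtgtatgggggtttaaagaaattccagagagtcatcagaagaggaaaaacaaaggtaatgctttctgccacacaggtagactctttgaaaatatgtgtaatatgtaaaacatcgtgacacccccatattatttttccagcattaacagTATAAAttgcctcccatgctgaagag
Ltb upstream, chr17:35194257-35194438, plus strand: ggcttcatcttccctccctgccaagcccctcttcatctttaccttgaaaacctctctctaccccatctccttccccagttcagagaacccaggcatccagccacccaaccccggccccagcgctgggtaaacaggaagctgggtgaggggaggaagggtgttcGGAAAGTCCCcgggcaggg

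The *Ifng*, *Tnf* and *Il2* windows each held TATAAA 24 to 31 bases before the RefSeq start. The sequence was also in the *Lta* window, farther out, and in none of the windows of *Il21*, *Csf1*, *Csf2*, *Ltb* or *Tgfb1*, against 7.59% of 32851 windows of the same length genome-wide. These absences hold for windows before the RefSeq start. For *Csf2* that start (54249899) lies upstream of the GENCODE gene, and the bases between were not searched. For *Ltb* it (35194507) lies inside the GENCODE gene. The NF-kB consensus was in the windows of *Csf1*, *Ltb* and *Tgfb1* (7.25% of all windows). The NFAT core GGAAA, which overlaps the NF-kB match of *Csf1* and *Ltb*, was in 8 of the 9 windows and in 55.6% of all windows. TGANTCA (AP-1, 6.75% of all windows) and the T-box core GGTGTGA (3.33%) were in none of the 9. These are matches of letters, not binding sites.

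Between the spleens, *Ifng*, *Tnf* and *Il2* were at least 2-fold higher at 28 weeks, and *Lta* was the member with the clearest lower level. Between the organs at 28 weeks, *Il10*, *Il2* and *Csf1* were at least 2-fold higher in kidney, and *Ifng*, which differed most between the spleens among the members with at least 20 UMIs, differed by less. *Ltb* and *Tgfb1*, the members with the most UMIs, differed by at most 1.18-fold in both comparisons.

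**Figure D1:**
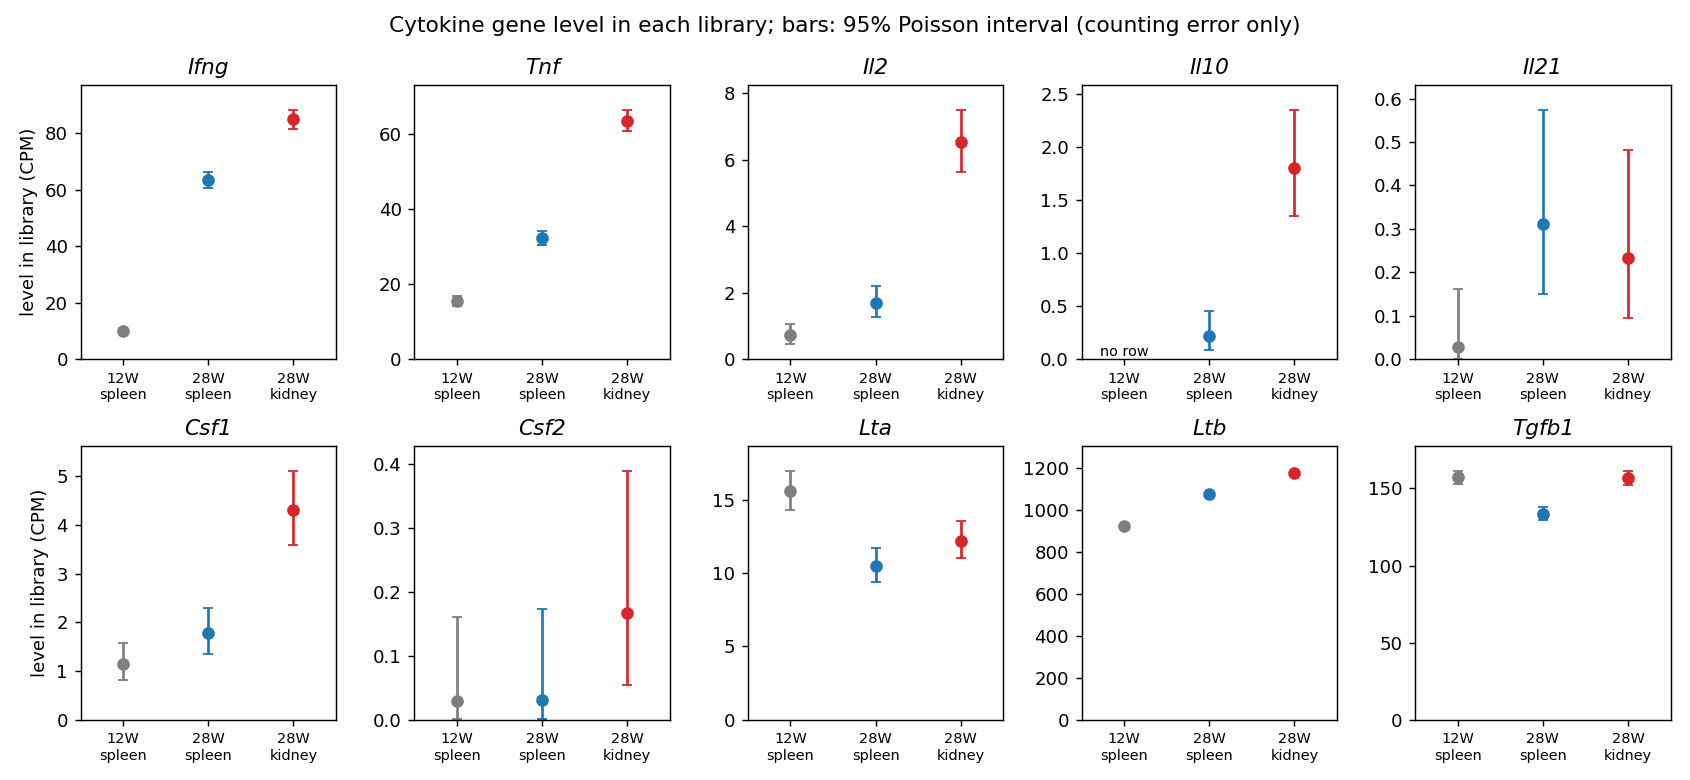
Level of each cytokine gene in the 3 libraries (CPM, linear axes from 0, each gene on its own scale), with 95% Poisson intervals for counting error. *Ifng*, *Tnf*, *Il2* and *Csf1* were ordered 12W spleen, 28W spleen, 28W kidney, *Lta* was highest in 12W spleen, and *Il10* had no row there.

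Of the 10 members, 7 had at least 20 UMIs over the 2 spleens. At 28 weeks 3 of the 7 were at least 2-fold higher and 0 were 2-fold lower, against 4.93% higher and 3.5% lower of the 12412 genes with that depth. Their median log2 ratio was 0.63, against -0.10 for all genes. In 28W kidney over 28W spleen, 8 members had at least 20 UMIs, and 3 were at least 2-fold higher and 0 lower, where 15.3% of 13189 genes were higher and 2.91% lower. The members' median log2 ratio was 0.70, against 0.12 for all genes. Without the marked clusters, the organ comparison of all genes turned from 2020 higher and 384 lower to 625 higher (5.29%) and 771 lower (6.52%), while the members stayed at 3 higher and 0 lower. Between the spleens the members without those clusters had 2 higher and 0 lower, since *Tnf* came to 1.98-fold. Of the 12086 genes tested there, 431 (3.57%) were higher and 451 (3.73%) lower. These are counts of single-library folds, with no test of the members as a set. Leaving out the marked clusters was uneven between the organs. It removed the cycling cluster 11 of 28W kidney, with 83.5% of that library's UMIs of the proliferation list (*Mki67*, *Top2a*, *Stmn1*, *Birc5*, *Pclaf*). It kept cluster 6 of 28W spleen, with 86.8% of them there. The part of this imbalance in the organ counts was not tested.

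**Figure D2:**
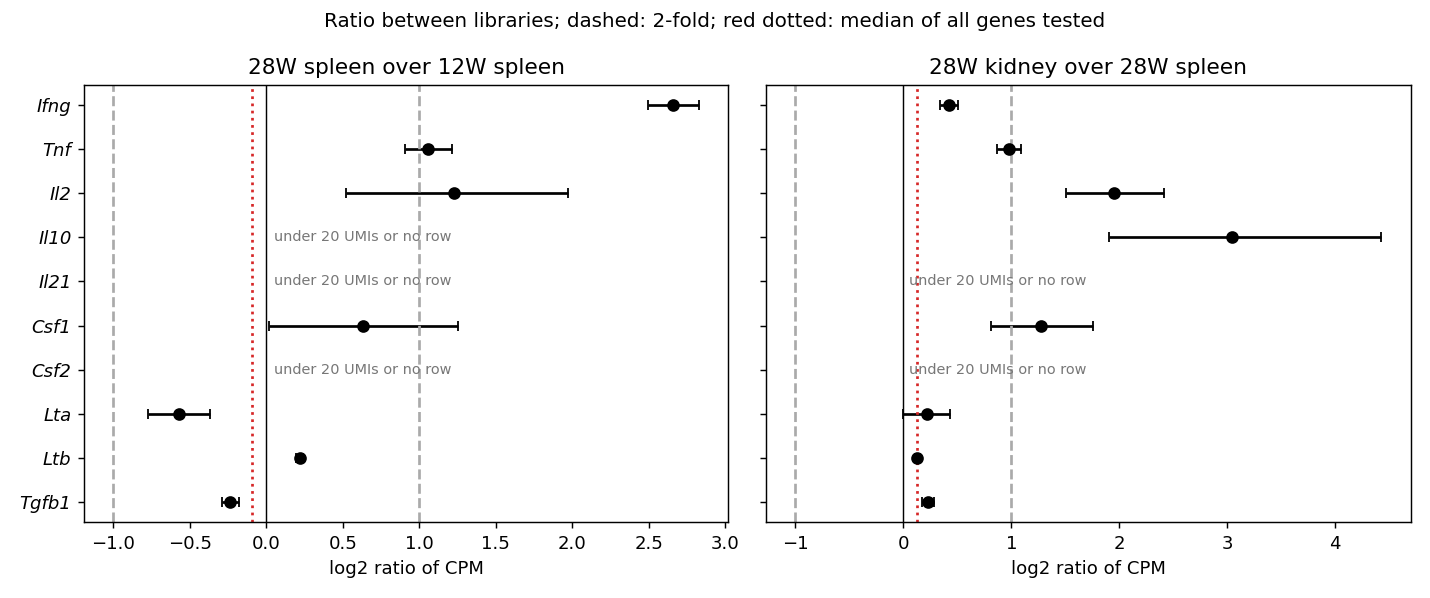
Log2 ratio of CPM between libraries for each cytokine gene (points, with 95% counting intervals), by age in spleen (left) and by organ at 28 weeks (right). Dashed lines mark 2-fold and the red dotted line the median of all genes tested, at -0.10 and 0.12; *Ifng* stands at 2.66 by age and 0.42 by organ, and *Il2* at 1.23 and 1.95.

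*Ifng* had 349, 2035 and 2545 UMIs. Its levels were 10.0 CPM (9.02 to 11.2), 63.5 CPM (60.8 to 66.4) and 85.0 CPM (81.7 to 88.4), with no overlap of the intervals. The 28W spleen level was 6.33-fold (5.64 to 7.11) that of 12W spleen, above 99.3% of the genes tested. The 28W kidney level was 1.34-fold (1.26 to 1.42) that of 28W spleen, at the 71.8 percentile of the genes tested. Per cell the difference between the organs was smaller, at 314 and 357 UMIs per 1000 cells, or 1.14-fold.

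Within 12W spleen, *Ifng* was concentrated in few clusters. Clusters 2 and 7 held 76.8% of its UMIs and 21.6% of the cells. Cluster 2 had 39.2 CPM (33.2 to 46.0), 6.14-fold (4.94 to 7.63) the level of the other cells, and the highest level of the cytotoxic list (*Gzmb*, *Gzmk*, *Prf1*, *Nkg7*, *Ccl5*) in that library. Cluster 7 had 23.3 CPM and the highest antigen receptor response list (3072 CPM against 665 in the library), with a low cytotoxic list (391 CPM). The response list was *Nr4a1*, *Nr4a2*, *Nr4a3*, *Egr1*, *Egr2*, *Egr3*, *Tnfrsf9*, *Irf4* and *Xcl1*. Its largest parts in the library were *Xcl1* (366 CPM) and *Tnfrsf9* (99.7). Since its cells held more RNA, cluster 7 held 312 *Ifng* UMIs per 1000 cells and cluster 2 held 136. The low-RNA cluster 8 had 38.6 CPM from 11 UMIs, and the other 7 clusters lay between 1.07 and 5.36 CPM.

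*Ifng* was spread over more clusters at 28 weeks. In 28W spleen 7 of 11 clusters were above the highest cluster of 12W spleen, led by the low-RNA cluster 11 (119 CPM, from 33 UMIs), cluster 2 (116) and cluster 4 (115), and cluster 3 was lowest, at 7.07 CPM. The top 2 clusters by UMIs held 47.2% of *Ifng* UMIs and 29.0% of the cells. In 28W kidney, 11 of 12 clusters lay between 46.5 and 112 CPM, and the myeloid-marked cluster 12 had 15.4 CPM. The highest cluster exceeded the lowest 36.6-, 16.9- and 7.29-fold, where the lowest 12W spleen cluster rests on 2 UMIs. Ordered by level, most neighbouring clusters overlapped in their intervals: 1 of 9, 2 of 10 and 1 of 11 neighbouring pairs were separate in the 3 libraries. The kidney cluster with most *Ifng* UMIs per cell was the cycling, haemoglobin-marked cluster 11, at 933 per 1000 cells and 81.8 CPM.

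*Tnf* had 538, 1033 and 1904 UMIs. The levels were 15.5 CPM (14.2 to 16.9), 32.3 CPM (30.3 to 34.3) and 63.6 CPM (60.8 to 66.5), again without overlap. The folds were 2.08 (1.88 to 2.32) by age and 1.97 (1.83 to 2.13) by organ, so the 2-fold limit lies inside both intervals. *Tnf* and *Ifng* thus parted between the comparisons: the age fold was greater for *Ifng*, and the organ fold greater for *Tnf*, with intervals that do not overlap in either comparison.

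By CPM *Tnf* was highest in clusters with little RNA per cell. These were cluster 8 of 12W spleen (91.3 CPM, 26 UMIs), cluster 11 of 28W spleen (83.1 CPM, 23 UMIs) and the tubule-marked cluster 2 of 28W kidney (125 CPM, 121 UMIs), in which mitochondrial genes took 8.98%, 6.64% and 10.8% of the UMIs. Counted per cell the order changed, and cluster 7 of 12W spleen (395 UMIs per 1000 cells), cluster 6 of 28W spleen (343) and the myeloid-marked cluster 12 of 28W kidney (696) were highest. Cluster 12 also had 123 CPM of *Tnf*, a cytokine that macrophages make as well. The lowest levels were 4.44 CPM in the haemoglobin-marked cluster 3 of 12W spleen, 12.1 in cluster 7 of 28W spleen and 27.6 in the tubule-marked cluster 7 of 28W kidney. Between the organs the *Tnf* fold without the marked clusters was 1.97, as with them.

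**Figure D3:**
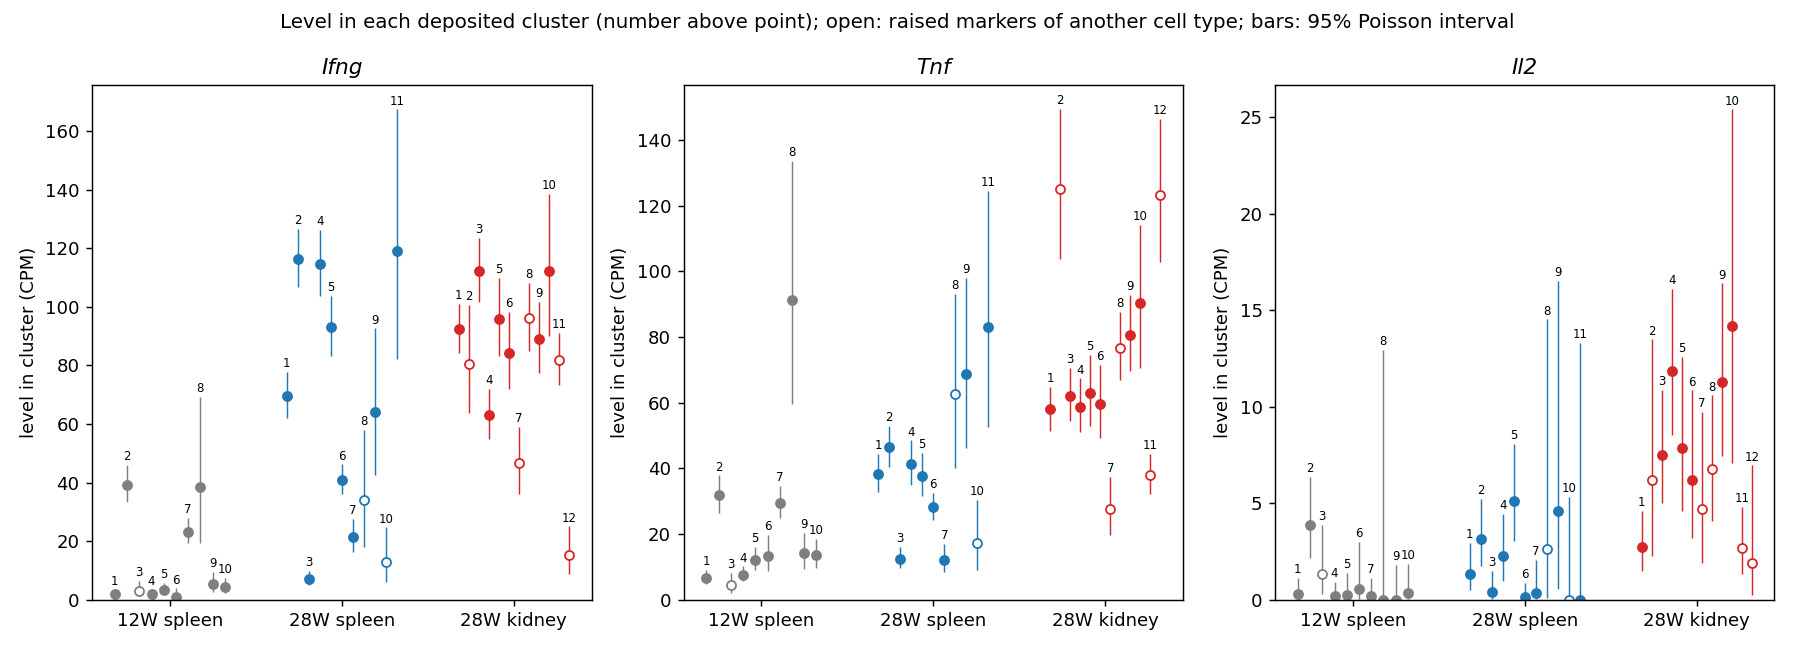
Level of *Ifng*, *Tnf* and *Il2* (CPM, linear axes) in each deposited cluster, with 95% Poisson intervals and the cluster number above each point; open points are clusters with raised markers of another cell type. *Ifng* stood apart in clusters 2, 7 and 8 of 12W spleen and lay between 46.5 and 112 CPM in 11 of 12 kidney clusters, and the widest *Tnf* intervals belong to clusters of few UMIs.

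Genes of cell dissociation and immediate-early response differed in the same comparisons. The list *Fos*, *Fosb*, *Jun*, *Junb*, *Atf3*, *Hspa1a*, *Hspa1b* and *Dnajb1* summed to 713, 1976 and 2698 CPM, with 7 of 8 genes at least 2-fold higher by age. By organ the list was mixed, with 3 of 8 at least 2-fold higher, led by *Hspa1a* (24.9 and 670 CPM), and 1 at least 2-fold lower, *Fos* (459 and 195.6 CPM). *Fosb* and *Junb* also had lower levels in kidney than in 28W spleen. The cytotoxic list followed the same order, at 1832, 4974 and 10278 CPM, of which *Ccl5* alone held 1327, 3990 and 7495. All 5 genes of that list were higher by age and by organ. The antigen receptor response list was at 665, 338.5 and 383 CPM, of which *Xcl1* held 366, 163 and 145. Of its 9 genes, 1 was higher and 8 lower by age, and 5 were higher and 4 lower by organ. Over the 33 clusters, Spearman's rho was 0.70 between *Ifng* and the cytotoxic list and 0.79 between *Tnf* and the dissociation list. These points share libraries, and within a library the values were -0.07, 0.71 and 0.20 for *Ifng* and -0.14, 0.55 and 0.81 for *Tnf* (10 to 12 clusters each). The pooled relations were thus not seen within every library. The crossed pairs were also positive over the 33 clusters, at 0.67 for *Ifng* with the dissociation list and 0.47 for *Tnf* with the cytotoxic list. Over the 23 clusters neither marked nor low in RNA, *Ifng* had 0.73 with the cytotoxic and 0.70 with the dissociation list. *Tnf* had 0.81 and 0.73 there, so these lists did not tell the genes apart over those clusters. The part of dissociation, of cytotoxic cell share and of depth in the cytokine differences was not tested.

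**Figure D4:**
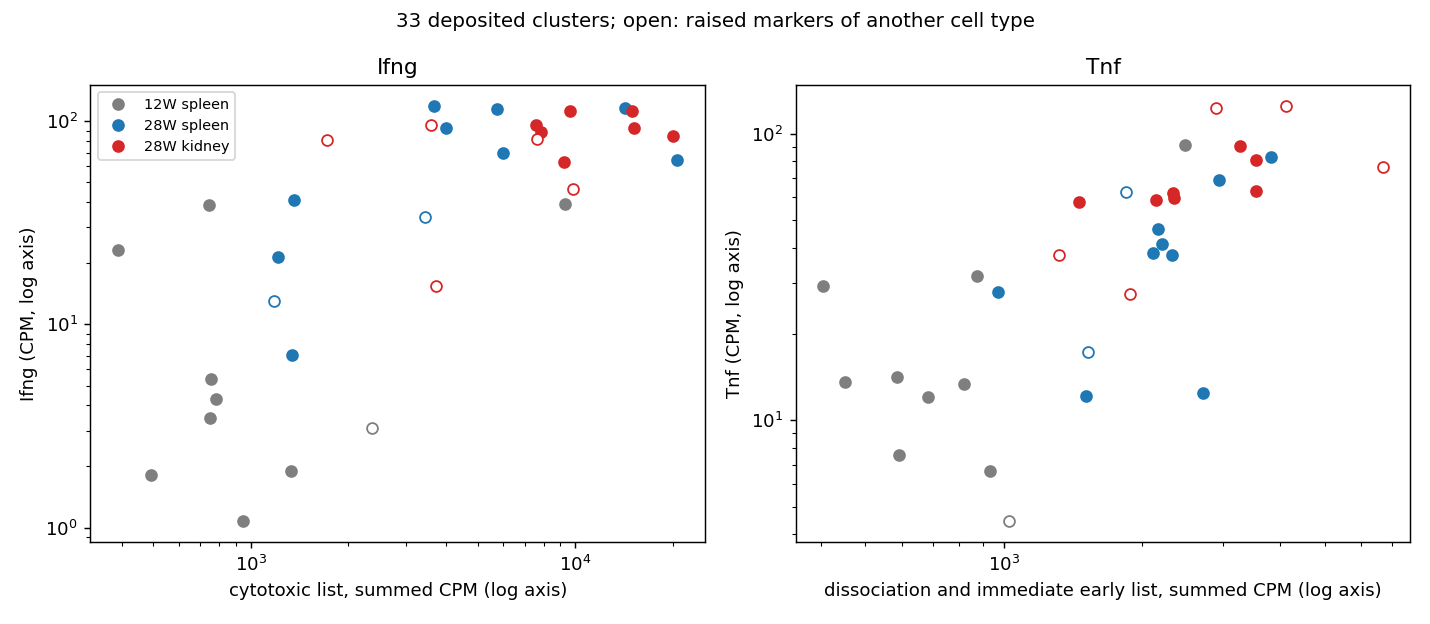
*Ifng* against the summed cytotoxic list (left) and *Tnf* against the summed dissociation and immediate early list (right) over the 33 deposited clusters (CPM, both axes logarithmic); open points are clusters with raised markers of another cell type. Most clusters of 12W spleen lie at the lower left of both panels, and within that library neither pair rises together (rho -0.07 and -0.14).

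*Il2* was sparse, with 25, 54 and 195 UMIs. Its levels were 0.720 CPM (0.466 to 1.06), 1.69 CPM (1.27 to 2.20) and 6.51 CPM (5.63 to 7.49). The age fold was 2.34 (1.43 to 3.93) and the organ fold 3.86 (2.84 to 5.32). In 12W spleen 60.0% of its UMIs lay in the cytotoxic cluster 2 (15 UMIs, 3.87 CPM), and clusters 8 and 9 had 0, with intervals up to 12.95 and 1.80 CPM. In 28W spleen, clusters 5 (18 UMIs) and 2 (15 UMIs) held 61.1%. In 28W kidney every cluster had *Il2*, from 1.93 CPM in cluster 12 to 14.2 CPM (11 UMIs) in cluster 10, with 11.9 in cluster 4 and 11.3 in cluster 9. No 2 neighbouring clusters differed beyond their intervals. The organ fold was 4.48 when the marked clusters were left out.

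*Il21* had 1, 10 and 7 UMIs, or 0.0288, 0.312 and 0.234 CPM. The ratio by age was 10.8 with a counting interval from 1.54 to 471, and the ratio by organ was 0.749 (0.242 to 2.18). With so few UMIs no difference between the organs was detectable, and no cluster had more than 2.

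*Il10* had 7 UMIs in 28W spleen and 54 in 28W kidney, or 0.219 CPM (0.0879 to 0.450) and 1.80 CPM (1.36 to 2.35). The kidney level was 8.25-fold (3.74 to 21.5) that of 28W spleen. Of the 54 kidney UMIs, 27 were in cluster 8, where the B cell list was at 1990 CPM and the CD8 T cell list at 1796, with 9.63 CPM of *Il10*. B cells can make interleukin-10 too. In the unmarked clusters the kidney had 0.921 CPM (18 UMIs), the 28W spleen 0.194 (6 UMIs), and the fold was 4.75. Clusters 3 (8 UMIs) and 12 (3 UMIs, myeloid) followed, and cluster 5 had 0, with an interval up to 1.71 CPM. The 12W spleen table lists only genes with at least 1 UMI and has no row for *Il10*, so no age ratio is given.

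*Tgfb1* had 5465, 4281 and 4686 UMIs, or 157 CPM (153 to 162), 134 CPM (130 to 138) and 157 CPM (152 to 161). The intervals of 12W spleen and 28W kidney overlap and 28W spleen was lower, at 0.850-fold (0.816 to 0.885) the 12W spleen level. The organ fold was 1.17 (1.123 to 1.22) by CPM and 0.994 per cell, and 1.03 without the marked clusters. *Tgfb1* also varied least among clusters, with ranges of 103 to 213, 93.5 to 185 and 99.1 to 266 CPM. The kidney maximum was in the myeloid-marked cluster 12, followed by the B cell-marked cluster 8 (233) and the cycling cluster 11 (200). Within the spleens the highest clusters by CPM were cluster 1 at 12 weeks and the low-RNA, haemoglobin-marked cluster 8 at 28 weeks.

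*Lta* was highest in 12W spleen. It had 543, 337 and 366 UMIs, or 15.6 CPM (14.3 to 17.0), 10.5 CPM (9.43 to 11.7) and 12.2 CPM (11 to 13.5), so both 28-week libraries were below 12W spleen and overlapped each other. The 12W spleen level was 1.49-fold (1.29 to 1.71) that of 28W spleen, and the organ fold of 1.16 had an interval from 0.999 to 1.35. Cluster 7 of 12W spleen, with the highest antigen receptor response list, held 38.1% of that library's *Lta* UMIs at 41.5 CPM (207 UMIs), 3.68-fold (3.08 to 4.38) the other cells. Leaving out the cluster with most *Lta* UMIs in each library moved the log2 ratio by age from -0.57 to -0.32. In 28W spleen cluster 6 held 31.2% of the *Lta* UMIs, more than any other cluster (105 UMIs, 16.3 CPM), and had that library's highest antigen receptor response list (939 CPM) and proliferation list. In 28W kidney cluster 4 was highest, at 20.8 CPM (72 UMIs), and the B cell-marked cluster 8, with the highest response list there, had 8.56 CPM. *Lta* and its genomic neighbour *Tnf* therefore differed in opposite directions between the spleens.

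*Ltb* was the member with the narrowest intervals, with 32072, 34362 and 35114 UMIs. Its levels were 923 CPM (913 to 933), 1073 CPM (1062 to 1084) and 1173 CPM (1161 to 1185), 1.16-fold (1.14 to 1.18) by age and 1.09-fold (1.08 to 1.11) by organ. The organ difference was of the size of the shift of the median gene, 0.11 on the log2 scale: relative to that gene *Ltb* was at 0.02, *Lta* at 0.10, *Tgfb1* at 0.12, *Ifng* at 0.31 and *Tnf* at 0.87. Scaled to a library total without T cell receptor, immunoglobulin, mitochondrial and ribosomal protein genes the log2 ratio of *Ltb* by organ was -0.03, and per cell the fold was 0.928.

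Among clusters *Ltb* had a sharper pattern. In 28W kidney the 7 unmarked clusters lay between 1268 and 1741 CPM and the 5 marked clusters between 442 and 842, with no overlap. Over the unmarked clusters the kidney level was 1451 CPM against 1085 in 28W spleen, or 1.34-fold. That comparison left out the cycling cluster 11 of 28W kidney (679 CPM) and kept the cycling cluster 6 of 28W spleen (604 CPM). The part of this imbalance in the fold was not tested. In 12W spleen the lowest level was 298 CPM in cluster 7, the cluster that was highest for *Lta*, at 0.290-fold (0.275 to 0.305) the other cells, followed by the cycling cluster 10 (641) and cluster 9 (661). In 28W spleen clusters 6 (604, cycling) and 10 (616, B cell-marked) were lowest and the other 9 lay between 959 and 1287. Within each library *Ltb* was lower in clusters with a higher proliferation list (rho -0.71, -0.57 and -0.76) and higher in those with a higher cytotoxic list (0.61, 0.75 and 0.70), as a description over 10 to 12 clusters that share a library's cells and depth. In UMIs per cell, however, the cycling clusters 10 of 12W spleen and 11 of 28W kidney were highest, at 9200 and 7747 per 1000 cells; these held the most RNA per cell in their libraries.

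**Figure D5:**
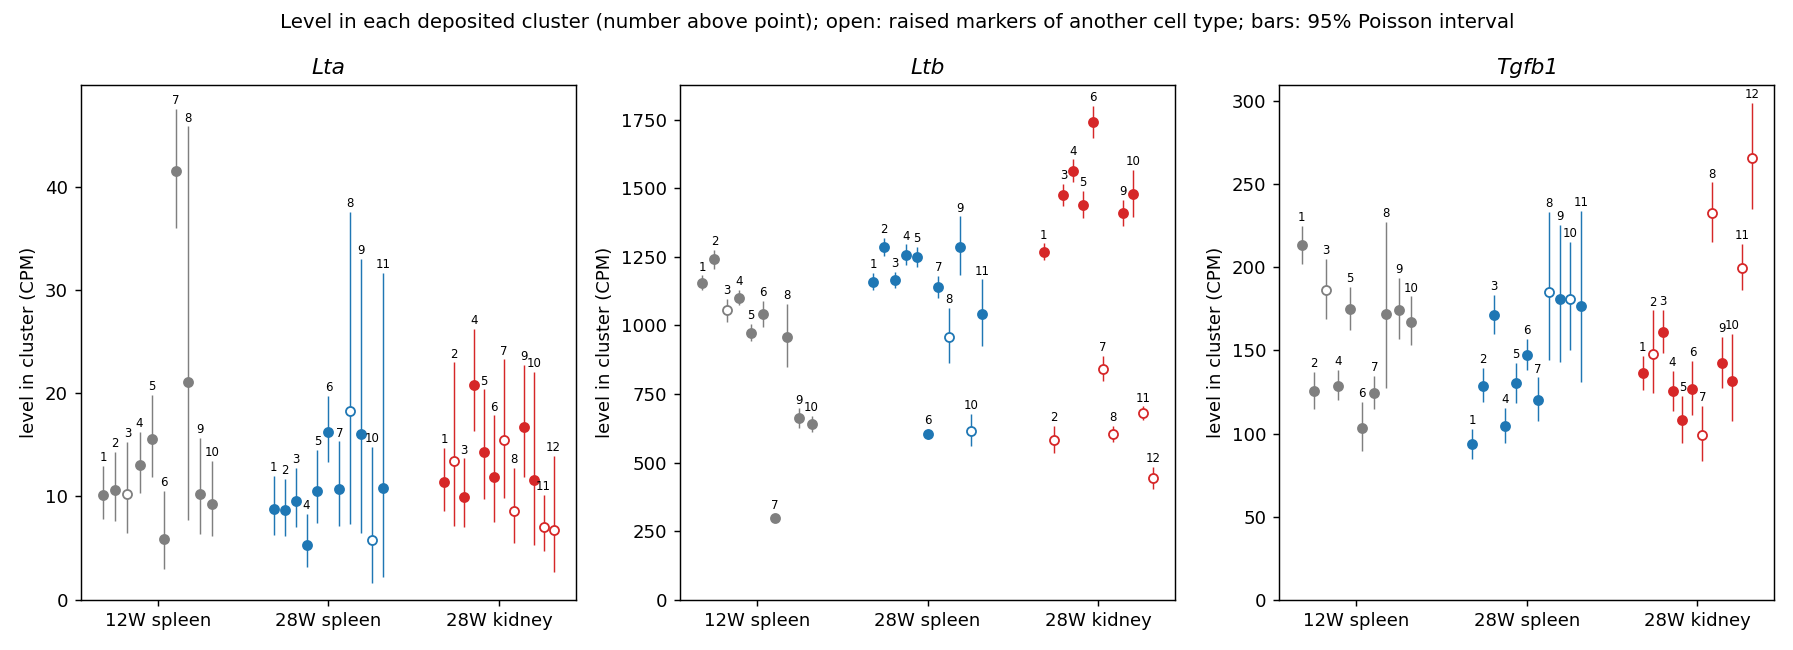
Level of *Lta*, *Ltb* and *Tgfb1* (CPM, linear axes) in each deposited cluster, with 95% Poisson intervals and the cluster number above each point; open points are clusters with raised markers of another cell type. Cluster 7 of 12W spleen was highest for *Lta* (41.5 CPM) and lowest for *Ltb* (298 CPM), and open points of 28W kidney lie below all filled ones for *Ltb*.

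*Csf1* had 40, 57 and 129 UMIs, or 1.15 CPM (0.823 to 1.57), 1.78 CPM (1.35 to 2.31) and 4.31 CPM (3.60 to 5.12). The age fold was 1.55 (1.01 to 2.38) and the organ fold 2.42 (1.76 to 3.37). In 12W spleen 47.5% of its UMIs were in the cytotoxic cluster 2. The highest level in 28W kidney was 15.4 CPM (16 UMIs) in the myeloid-marked cluster 12. Clusters 3 (32 UMIs, 8.59 CPM) and 1 (23 UMIs, 4.50 CPM) held 42.6% of the UMIs and 23.9% of the cells. Their cytotoxic lists were high, but cluster 6, with the highest such list there (19962 CPM), had 7 UMIs and 3.62 CPM. Without the marked clusters the organ fold was 2.82 and the age fold 1.24. *Csf2* had 1, 1 and 5 UMIs, with the kidney UMIs in clusters 7 (3 UMIs) and 4 (2 UMIs), and no difference was detectable at this depth.

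Counted within libraries, among members with at least 100 UMIs, the highest cluster was at least 2-fold above the other cells for 3 of 5 members of 12W spleen (*Ifng*, *Tnf*, *Lta*), 2 of 5 of 28W spleen (*Ifng*, *Tnf*) and 3 of 7 of 28W kidney (*Tnf*, *Il2*, *Csf1*). Such a cluster existed for 60.4%, 54.1% and 45.7% of all genes with as many UMIs, so the members were not set apart by this count. Pairs of members over the 33 clusters gave rho of 0.69 for *Ifng* and *Tnf*, 0.43 for *Ifng* and *Ltb*, 0.14 for *Tnf* and *Ltb*, and 0.00 for *Ifng* and *Lta*. Without the marked and low-RNA clusters (23 clusters), they were 0.82, 0.70, 0.80 and -0.05. These values pool clusters of different libraries, so differences between libraries enter them. With each library's mean subtracted, Pearson's r of log levels over all 33 clusters was 0.606, 0.242, -0.103 and 0.251 in the same order. By that measure *Tnf* and *Ltb* did not rise together. It was not taken for the 23 clusters alone.

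The genes whose levels ran most like a member's over the 33 clusters were taken from 7150 genes by Spearman's rho. For *Ifng* these were *Casp4* (0.85), an inflammatory caspase, *Itgb1* (0.84), the integrin chain CD29, and *AU020206* (0.83). For *Tnf* they were *Icam1* (0.84), an adhesion molecule, *Cd44* (0.84), a marker used in the sort, and *Bhlhe40* (0.83), a transcription factor. For *Ltb* they were *Gimap3* (0.91), *Idnk* (0.91) and *Hcst* (0.91), which encodes the adaptor DAP10. For *Tgfb1* they were *Map4k1* (0.73), *Sypl* (0.71) and *Snx2* (0.70), and for *Lta* *Mrpl38* (0.62), *AU022252* (0.60) and *Pex19* (0.60). With each library's mean subtracted (Pearson's r of log2(CPM + 10)), *Itgb1* ranked first for *Ifng* (0.79) and *Gimap3* second for *Ltb* (0.93), while *Casp4* ranked 286 and *Bhlhe40* ranked 606.

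Genes known to control *Ifng* were at higher levels at 28 weeks in part. Of 10 with enough UMIs, 4 were at least 2-fold higher in 28W spleen and 0 lower, against 4.93% and 3.5% of all genes tested. The 4 were *Il12rb1* (2.06-fold), *Il18r1* (2.90) and *Il18rap* (2.75), which encode chains of the interleukin-12 and interleukin-18 receptors, and *Bhlhe40* (4.13). In all 7 of the 10 had a higher and 3 a lower level by age. *Il12rb2*, the other interleukin-12 receptor chain, was among the lower, at 0.615-fold (0.402 to 0.930) from 67 and 38 UMIs. *Tbx21*, which encodes T-bet, had 19.2, 37.5 and 73.6 CPM, 1.96-fold both by age (1.78 to 2.16) and by organ (1.83 to 2.104). By organ *Il12rb1* (2.90-fold), *Il12rb2* (2.34) and *Bhlhe40* (4.11) were above 2-fold and 0 were lower, against 15.3% and 2.91% of all genes tested. Cluster 8, B cell-marked, held 52.5% of the kidney UMIs of *Bhlhe40*, and without the marked clusters its organ fold was 2.21 and that of *Tbx21* 2.26. *Stat4* was at 119, 96.8 and 85.9 CPM and *Eomes* at 79.2, 72.9 and 93.3. *Ifng-as1* had no row.

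Of 11 genes induced by interferon-γ, all 11 had a higher level in 28W spleen than in 12W spleen, against 4664 of 12412 genes tested, and 4 were at least 2-fold higher, against 4.93% of all genes: *Socs1* (2.35-fold), a feedback inhibitor, *Cxcl10* (4.63) and *Cxcl9* (4.40), which encode chemokines, and *Ciita* (2.96), the class II transactivator. The GTPase genes *Gbp2*, *Gbp3*, *Gbp4*, *Igtp* and *Irgm1* were 1.31- to 1.93-fold higher. Type I interferon induces many of the same genes. In 12W spleen the haemoglobin-marked cluster 3 held 100% of the 19 *Cxcl9* UMIs and 90.9% of the 11 *Ciita* UMIs, and in 28W spleen the B cell-marked cluster 10 held 92.2% of 77 and 76.7% of 30. By organ 2 of the 11 were at least 2-fold higher, *Cxcl10* (3.24) and *Ciita* (3.89), and 0 lower, a share near the 15.3% of all genes. In kidney 94.7% of *Cxcl9* UMIs and 48.6% of *Ciita* UMIs lay in the myeloid-marked cluster 12. In the unmarked clusters 2 of 9 genes tested were at least 2-fold higher by age and 1 of 9 by organ, against 3.57% and 5.29% of all genes.

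The 17 receptor genes for these cytokines had a median log2 ratio of -0.05 between the spleens, against -0.10 for all genes. Of the 17, 2 were at least 2-fold higher and 1 lower, against 4.93% and 3.5% of all genes tested. The higher were *Il10ra* (2.01-fold) and *Csf2rb* (4.88-fold from 6 and 27 UMIs, of which 100% and 74.1% were in the marked clusters 3 and 10). The lower was *Ifngr2*, the second chain of the interferon-γ receptor, at 8.35 and 2.998 CPM, or 0.359-fold (0.282 to 0.454). *Ifngr1*, the ligand-binding chain, was at 169, 160 and 211 CPM in the 3 libraries. By organ 7 were at least 2-fold higher and 0 lower, against 15.3% and 2.91% of all genes. The myeloid-marked cluster 12, however, held 95.1% of the kidney UMIs of *Csf1r*, 78.0% of *Csf2ra*, 73.1% of *Csf2rb*, 58.3% of *Ltbr* and 42.1% of *Ifngr2*. Without the marked clusters 1 of 14 was higher, *Tnfrsf1b* (2.12-fold), a tumour necrosis factor receptor, and 1 was lower, *Ifngr2* (0.344-fold). Of all genes 5.29% were higher and 6.52% lower there. Leaving the marked clusters out thus turned the direction of *Ifngr2* by organ. By age it gave 1 higher and 2 lower of 15, against 3.57% and 3.73% of all genes.

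Several genes of cytokine RNA decay and signal inhibition were also measured. *Zfp36*, whose protein binds AU-rich elements and destabilises *Tnf* and other transcripts, was at 192, 456 and 231 CPM, or 2.37-fold higher by age and 0.507-fold by organ. *Socs3* was 5.48-fold higher by age. Of 10 in the list, 2 were at least 2-fold higher by age and 0 lower, against 4.93% and 3.5% of all genes tested. By organ 3 were higher and 0 lower, against 15.3% and 2.91%: *Zc3h12a* (2.48-fold), *Cish* (4.12-fold) and *Dusp5* (4.59-fold). The B cell-marked cluster 8 held 60.6% of the kidney UMIs of *Zc3h12a*, 57.5% of *Dusp5* and 52.3% of *Socs3*. Without the marked clusters *Cish*, a feedback inhibitor of cytokine and antigen receptor signals, was 4.91-fold higher in kidney and *Dusp5* 2.15-fold. *Zc3h12a* was at 1.13-fold and *Zfp36* at 0.375-fold. In all 2 of 10 were at least 2-fold higher there and 1 lower, against 5.29% and 6.52% of all genes.

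Genes that activate latent transforming growth factor β were at low levels. *Itgav* had 16.2, 19.4 and 25.1 CPM and *Furin* 6.85, 7.56 and 9.82. *Itgb8*, *Itgb6* (no row in either spleen) and *Ltbp3* were at least 2-fold higher in kidney, with 69.4%, 90% and 73.7% of their kidney UMIs in the tubule-marked cluster 7. By age 0 of 3 tested were 2-fold higher or lower, against 4.93% and 3.5% of all genes. Without the marked clusters 0 of 3 were higher by organ and 1 lower, *Itgb8*, against 5.29% and 6.52% of all genes. That call rests on few UMIs, at 0.205 CPM in kidney and 0.517 in 28W spleen, where all clusters together held 17 UMIs.

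Among 22 other T cell cytokine genes, *Il3*, *Il5*, *Il9* and *Il13* had no row in any library. *Fasl*, whose product kills Fas-bearing cells, had 6.82, 16.4 and 72.7 CPM, 2.40-fold by age and 4.43-fold by organ, and was 5.26-fold higher by organ without the marked clusters. *Tnfsf10* (TRAIL) was 2.89-fold higher in kidney and *Tnfsf8* (CD30 ligand) 0.381-fold. *Il17a* had 2 UMIs in 28W spleen and 58 in 28W kidney, of which 67.2% were in cluster 4, the cluster that was also highest for *Lta* there. *Ebi3*, the fourth gene at least 2-fold higher by organ, had 69.6% of its kidney UMIs in the myeloid-marked cluster 12. In all 2 of 10 tested were at least 2-fold higher by age (*Fasl*, *Ebi3*) and 0 lower, against 4.93% and 3.5% of all genes. By organ 4 of 11 were higher and 1 lower, against 15.3% and 2.91%.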

How the data were processed

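Cells were sorted and sequenced with 10x Genomics chemistry for the 5′ end of transcripts. Processing notes of the submitters name Cell Ranger 2.1.1 and R 3.6.1, and the study's methods give GRCm38; the annotation release, cell filters and treatment of doublets are not given in the sources used here. No doublet caller was run, since the tables hold cluster means and not cells. For each library the authors deposited cluster assignments and a table of mean counts per gene and cluster, a signal in UMIs divided by size factors, with log2 fold changes and adjusted p-values of each cluster against the rest, which were not used. Each column held whole multiples of a single step, and dividing by it gave whole UMIs for 100% of values within 0.001. UMIs were summed over clusters and scaled to the library total (CPM).

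Levels carry 95% exact Poisson intervals and ratios exact conditional (Clopper-Pearson) intervals, with no pseudocount. Genes with at least 20 UMIs over a pair of libraries were counted as at least 2-fold higher or lower, and a gene at 0 in 1 library was set to 3 counts. A cluster was called marked where the B cell, myeloid, kidney tubule or red cell marker list summed to 1000 CPM or more; the neutrophil and dendritic cell lists reached it in marked clusters alone. Likeness was ranked among members and other genes with at least 1000 UMIs over the 3 libraries, antigen receptor segments left out, and the first 3 genes are named. All members are named, and of the 6 pathway lists (78 genes) those past the fold and others as examples. A listed gene is not reported here. The members (by name), gene lists and marker limit were chosen with earlier results of these data known. With 1 library per group no test was made. The count recovery and intervals were tested on simulated Poisson counts, the model that the intervals assume. The simulation held no variation between mice, sorts or cells, so it covers the calculation alone. Coordinates are from GENCODE M21 and upstream sequences from RefSeq. Tools were Python 3.11.15, numpy 2.4.6, pandas 2.3.3, scipy 1.17.1 and matplotlib 3.10.9.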

Additional observations from a re-analysis of the deposited data

How the results depend on the processing

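With 1 library per group, differences between mice, sorts, digestion and sequencing cannot be told apart from age or organ, and few UMIs limit *Il21*, *Csf2*, *Il10* and, outside kidney, *Il2*. Replicates could not be left out in turn, since the columns pool the samples. No paired analysis was possible because the columns carry no replicate numbers and no test was made. The 15 log2 ratios of members were recomputed under 8 alternatives (other scaling, cluster weights, pseudocounts and clusters left out). Of 120 values, 119 kept their sign, 84 stayed within the counting interval and 35 left it; the exception was *Ltb* by organ, at -0.030 against 0.13, with the library total that leaves out T cell receptor, immunoglobulin, mitochondrial and ribosomal protein genes. *Ifng* by age ranged from 1.88 (10 CPM added) to 3.09 (without the cluster with most UMIs of the gene). The count of members at least 2-fold higher by age was 3. It was 2 with clusters weighted by cells, with 1 CPM added or without marked clusters, 4 at a fold of 1.5, and 1 with 10 CPM added or at a fold of 3. By organ it was also 3. It was 2 with clusters weighted by cells, with 1 CPM added or at a fold of 3, 4 without low-RNA clusters or at a fold of 1.5, and 0 with 10 CPM added.

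Counts over all genes moved more. By age, 612 higher and 435 lower became 228 and 116 with 1 CPM added, 74 and 32 with 10 CPM, 1124 and 1076 at a fold of 1.5, 278 and 150 at a fold of 3, 2019 and 1582 with a minimum of 1 UMI, and 296 and 185 with a minimum of 100. By organ, 2020 higher and 384 lower became 1157 and 162 with 1 CPM added, 220 and 49 with 10 CPM, 625 and 771 without marked clusters, 3834 and 1634 with a minimum of 1 UMI, and 933 and 216 with a minimum of 100; the lower count was 921 at a fold of 1.5 and 126 at a fold of 3. The share of higher among called genes was 58.5% by age and 84.0% by organ, and 65.9% and 79.6% when scaled to the median gene ratio.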
